A study of Mus musculus with 6 samples.

Results

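Meis1, Kit, Cd34, Flt3, Hoxa9, Myb, Myc, Gata2 and Runx1 are 9 genes known as regulators and markers of blood stem cells, progenitors and acute myeloid leukaemia (AML). They were taken by symbol from the 32285 features of the deposited UMI (unique molecular identifier) count matrices, and all 9 were found. The matrices came from the lungs of mice, 3 libraries from AML-infiltrated lungs (AML) and 3 from normal lungs (Ctrl). In both groups the lungs were perfused and digested, and cells carrying the pan-leukocyte protein CD45 were bound to magnetic beads before single-cell 3′ sequencing. The labels give no strain, age or sex, do not name the leukaemia model, and do not mark which cells are leukaemic. They also do not say that the libraries of a group are separate animals, so each p-value measures the spread between these libraries, which may in part be technical.

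Kit and Flt3 are receptor tyrosine kinases: Kit binds stem cell factor and Flt3 binds Flt3 ligand. Cd34 is a sialomucin on the surface of blood progenitors and of vascular endothelium. Hoxa9 is a homeobox transcription factor and Meis1 its cofactor, a pair often raised together in AML, while Gata2, Runx1, Myb and Myc are transcription factors that control the formation, identity and growth of blood progenitors. Several of them also work outside the progenitors: Kit marks capillary endothelium of the lung, Gata2 acts in endothelium, basophils and mast cells, Flt3 guides dendritic cells, and Myb and Myc act in lymphocytes.

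The libraries held 4687, 13120 and 35391 barcodes in AML and 3967, 5873 and 10057 in Ctrl, with 43913245 to 66513826 UMIs each. The median depth was 9381, 3979.5 and 1067 UMIs per barcode in AML and 9354, 6102 and 2740 in Ctrl, so AML library 3 stood apart as the shallowest. After filters 70289 of 73095 barcodes were used. Pairs of libraries shared at most 1.13% of the barcodes of the smaller one. Each cell was placed in the class for which it carried the most of 6 marker genes, none of them one of the 9 regulators, and 14303 cells stayed ungated, 10522 of them in AML library 3. A level is given as CPM (scaled counts), the summed UMIs of a gene per 1000000 UMIs of the same cells and library, and a class is read only in libraries with at least 20 of its cells.

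Among classes with enough cells, the 4 regulators with their highest level in endothelium were Meis1, Kit, Cd34 and Gata2. The 300 bases around their annotated starts (250 before, 50 after) are shown because these genes share that class. Kit and Gata2 each had 2 listed starts, and only the first is shown. The second windows were chr5:75574741-75575040 for Kit and chr6:88198414-88198713 for Gata2. Which start is used in endothelium was not tested. The sequences are from RefSeq, build GRCm38.p6, in the direction of transcription, and capitals mark AGGAAG (the core bound by ETS factors) and TGTGGT (bound by RUNX factors) on either strand.
Meis1 (chr11:19018920-19019219, minus strand): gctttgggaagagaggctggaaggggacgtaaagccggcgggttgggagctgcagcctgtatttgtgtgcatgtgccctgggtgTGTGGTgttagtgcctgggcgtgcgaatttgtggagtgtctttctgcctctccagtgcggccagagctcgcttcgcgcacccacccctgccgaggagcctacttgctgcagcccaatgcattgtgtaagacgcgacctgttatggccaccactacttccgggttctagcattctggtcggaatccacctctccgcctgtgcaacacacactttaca
Kit (chr5:75574737-75575036, plus strand): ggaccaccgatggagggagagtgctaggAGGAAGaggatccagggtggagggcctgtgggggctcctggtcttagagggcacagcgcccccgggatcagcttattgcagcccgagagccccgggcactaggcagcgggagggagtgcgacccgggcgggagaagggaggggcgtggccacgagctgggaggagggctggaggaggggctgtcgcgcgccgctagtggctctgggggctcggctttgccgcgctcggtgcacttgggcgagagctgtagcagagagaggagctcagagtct
Cd34 (chr1:194938571-194938870, plus strand): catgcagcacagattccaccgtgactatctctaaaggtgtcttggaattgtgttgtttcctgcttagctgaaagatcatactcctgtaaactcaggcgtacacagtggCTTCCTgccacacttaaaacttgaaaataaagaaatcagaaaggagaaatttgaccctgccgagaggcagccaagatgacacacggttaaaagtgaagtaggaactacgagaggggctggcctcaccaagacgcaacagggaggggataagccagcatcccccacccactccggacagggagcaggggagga
Gata2 (chr6:88193641-88193940, plus strand): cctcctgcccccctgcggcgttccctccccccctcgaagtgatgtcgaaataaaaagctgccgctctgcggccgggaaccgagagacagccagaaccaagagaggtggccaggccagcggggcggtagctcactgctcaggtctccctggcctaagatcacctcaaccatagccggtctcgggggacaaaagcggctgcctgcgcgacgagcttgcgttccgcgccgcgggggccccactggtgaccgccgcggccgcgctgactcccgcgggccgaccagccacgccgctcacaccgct
AGGAAG or its reverse complement stood once in the Kit window and once in the Cd34 window, and in 35.4% of all 32851 windows of this length in the table. TGTGGT stood once in the Meis1 window, against 16.8% of all windows. Neither AGATAA, the GATA motif, nor CACGTG, the E-box bound by MYC, was found in these 4 windows, and they occur in 11.2% and 7.15% of all windows. These are matches of letters and show no binding. Of the 9 regulators 8 had a window in the table. Meis1, Cd34, Flt3, Myb and Runx1 overlap at least 1 gene on the opposite strand. No source used here states whether counting was stranded, so part of their UMIs may belong to such a gene. On the same strand Meis1 overlaps 3 genes and Hoxa9 overlaps 1 (Mir196b), which counting by strand would not separate.

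**Figure D1:**
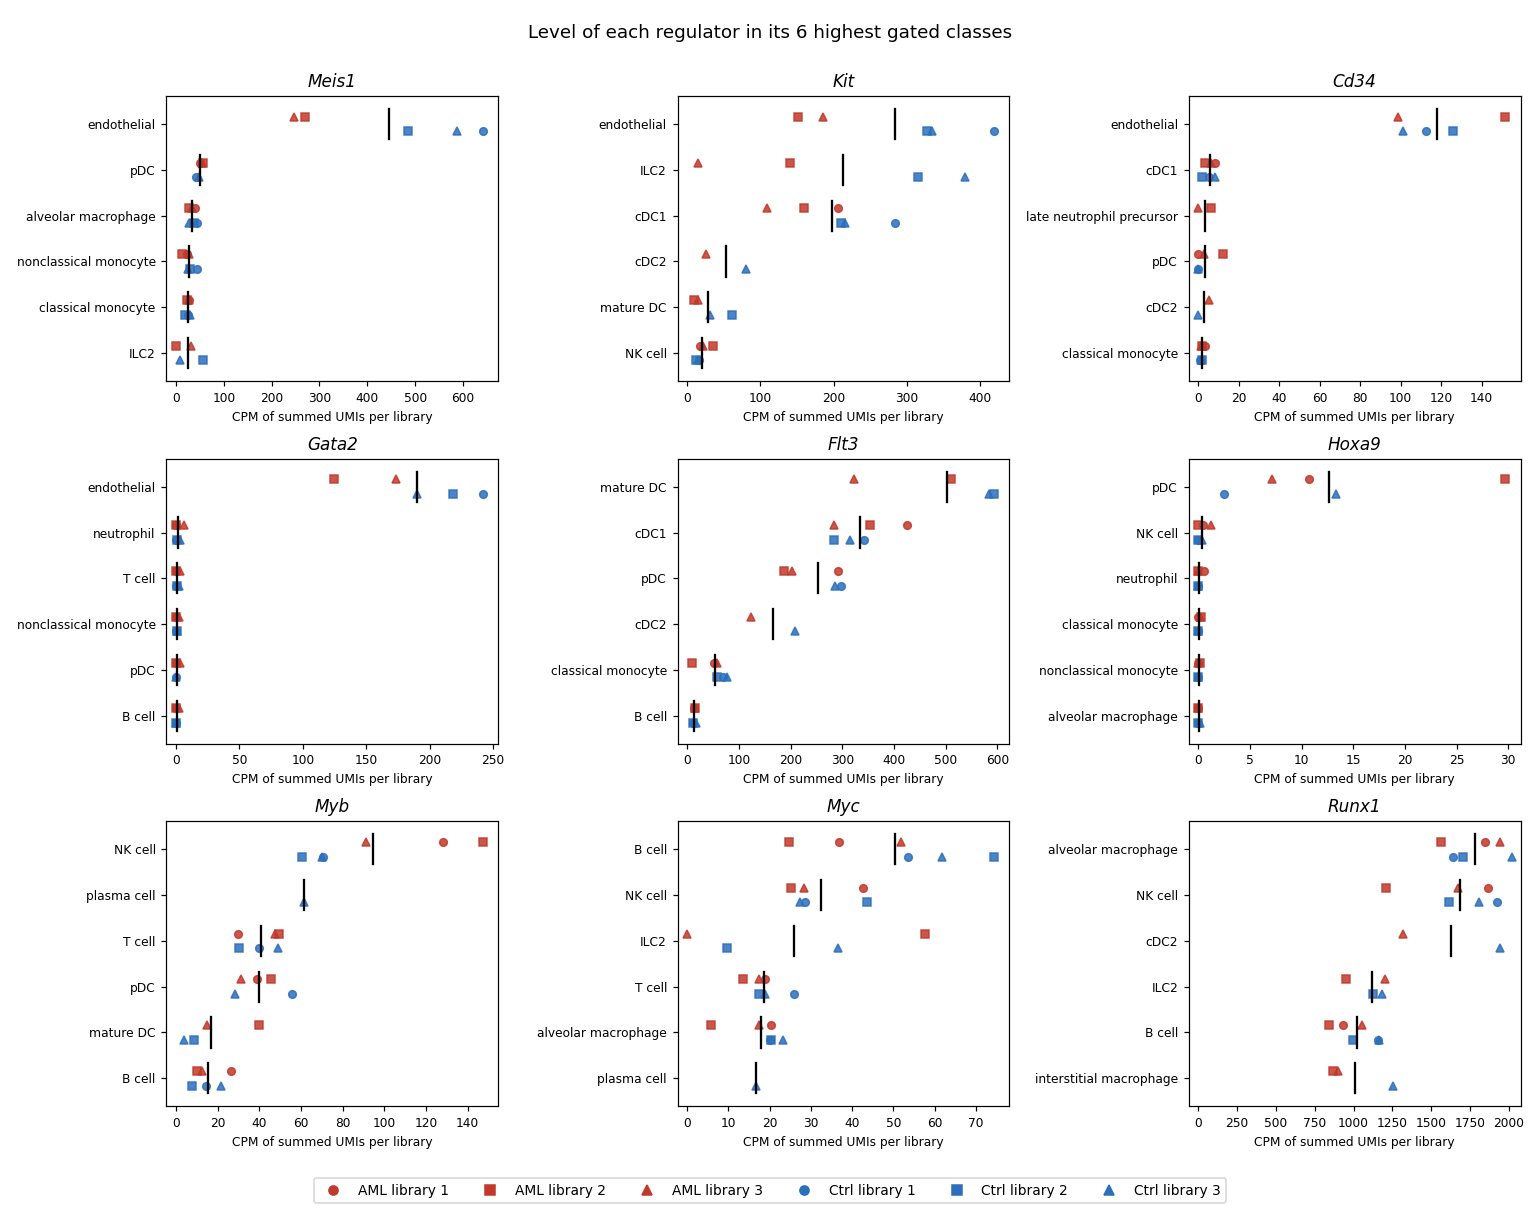
CPM (x axis, linear) of each regulator in the 6 gated classes where its mean was highest, with 1 symbol per library of at least 20 cells, AML above Ctrl within a class, and the mean over libraries as a vertical line. Among these classes, Meis1, Kit, Cd34 and Gata2 were highest in endothelial cells, Flt3 in dendritic classes and Hoxa9 in plasmacytoid dendritic cells (pDC). Myb was highest in NK cells, Myc in B cells, and Runx1 was high in many classes.

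Among classes with enough cells, Meis1, Cd34 and Gata2 were carried at their highest level by endothelial cells, and Kit was highest there too. For Meis1, Cd34 and Gata2 the ranges did not overlap those of the next class. The endothelial gate (markers Cdh5, Cldn5, Egfl7, Tie1, Ramp2 and Ptprb) held 13, 61 and 474 cells in AML and 95, 290 and 302 cells in Ctrl. Ptprc, the gene of CD45, stood at 314, 583 and 900 CPM in endothelial cells of the AML libraries and at 41.6, 89.9 and 380 CPM in those of the Ctrl libraries, against 1752 to 2569 CPM in the remaining cells of the 6 libraries. The median endothelial cell carried 5 of the 6 markers, and 99.3% of the gated cells also lay in the cluster named endothelial-like from the same markers.

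Meis1 (ENSMUSG00000020160, GRCm38 chr11:18879817-19018985, minus strand) had 270 and 246 CPM in endothelial cells of AML libraries 2 and 3 and 642, 484 and 587 CPM in those of Ctrl libraries 1, 2 and 3. The next class, pDC, averaged 49.9 ± 5.70 CPM (SD, n = 5 libraries), and alveolar macrophages 34.3 ± 7.03 CPM (n = 6), and these 2 classes overlapped. After each cell was thinned to 1000 UMIs, a mean over libraries of 31.7% of endothelial cells carried a Meis1 UMI, against 0.431% of B cells, the class used as background for RNA free in the droplets (57.3% and 1.38% before thinning). Endothelial cells were 1.76% of all cells and held 27.5% of all Meis1 UMIs, and alveolar macrophages held 26.6%.

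Kit (ENSMUSG00000005672, chr5:75574916-75656722, plus strand) had 152 and 186 CPM in endothelial cells of AML libraries 2 and 3 and 419, 328 and 334 CPM in those of the Ctrl libraries. Group 2 innate lymphoid cells (ILC2) averaged 212 ± 166 CPM (n = 4) and conventional dendritic cells type 1 (cDC1) 197 ± 58.8 CPM (n = 6), and their ranges overlapped that of endothelium. Thinned shares of cells with a Kit UMI were 24.6% in endothelial cells, 14.7% in ILC2 and 20.1% in cDC1, against 0.211% in B cells (49.8%, 37.6%, 59.1% and 0.379% before thinning). Of all Kit UMIs 43.9% lay in endothelial cells and 18.9% in cDC1.

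Cd34 (ENSMUSG00000016494, chr1:194938819-194961279, plus strand) had 152 and 98.6 CPM in endothelial cells of AML libraries 2 and 3 and 113, 126 and 101 CPM in those of the Ctrl libraries. The next class, cDC1, averaged 5.49 ± 2.66 CPM (n = 6). Endothelial cells held 67.6% of all Cd34 UMIs, and 9.15% of them carried one after thinning, against 0.0558% of B cells (30.6% and 0.0538% before thinning).

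Gata2 (ENSMUSG00000015053, chr6:88193891-88207032, plus strand) had 125 and 173 CPM in endothelial cells of AML libraries 2 and 3 and 242, 219 and 190 CPM in those of the Ctrl libraries. No other class with enough cells averaged above 1.67 CPM, the value of neutrophils. Basophils, in which Gata2 is a known regulator, were too few for a class level: the 17 basophils of AML library 3 held 12 Gata2 UMIs, and the 8 and 7 basophils of Ctrl libraries 2 and 3 held 56 and 33. The same 17 basophils held 12 Kit UMIs, and those of Ctrl libraries 2 and 3 held 0. Endothelial cells held 72.2% of all Gata2 UMIs and basophils 6.88%. After thinning, 16.6% of endothelial cells carried a Gata2 UMI, against 0.0838% of B cells (47.9% and 0.0573% before thinning).

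Against the remaining cells of the same libraries, all 8 regulators tested differed in endothelial cells, where 44.9% of all 16974 genes tested were called, 20.1% as higher and 24.8% as lower (edgeR quasi-likelihood test with the library as a block, Benjamini-Hochberg adjusted p under 0.05 over all genes, 5 libraries). The remaining cells had 14.2 to 32.1 CPM of Meis1, 4.27 to 12.1 CPM of Kit, 0.437 to 1.99 CPM of Cd34 and 0.187 to 4.42 CPM of Gata2, all below the endothelial ranges. Gata2 was higher by 7.16 ± 0.721 (log2, SE; adjusted p = 0.00016), Cd34 by 6.83 ± 0.397 (adjusted p = 1.46e-05), Kit by 5.02 ± 0.292 (adjusted p = 1.46e-05) and Meis1 by 4.03 ± 0.271 (adjusted p = 2.38e-05), each in 5 of 5 libraries. Flt3, Runx1, Myc and Myb were lower, each in 5 of 5 libraries, with log2 differences of -3.47, -3.11, -2.61 and -2.40. The Myb call rests on 12 endothelial UMIs and was lost without Ctrl replicate 3 (log2 difference -2.66). Hoxa9 had no UMI in 1235 endothelial cells, which allows a share of up to 0.243% of cells with a UMI.

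**Figure D2:**
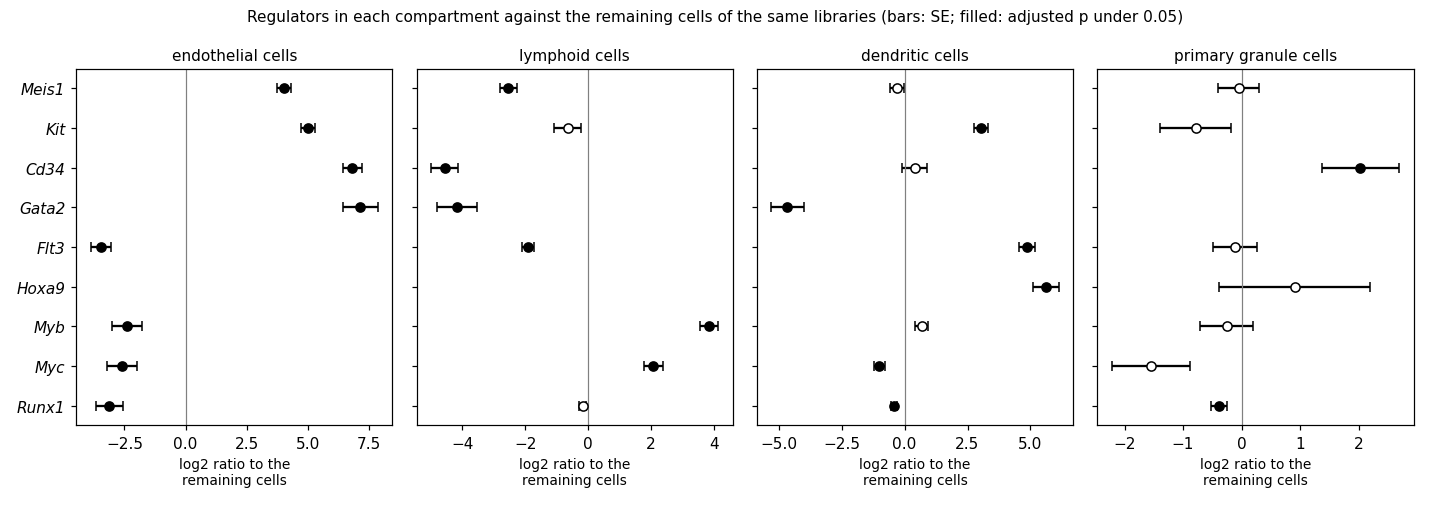
Log2 ratio (x axis) of each regulator in endothelial, lymphoid, dendritic and primary granule cells against the remaining cells of the same libraries, with SE bars and filled points where the adjusted p was under 0.05. The 4 genes high in endothelium stand at 4.03 to 7.16 in the first panel, Myb and Myc are right of 0 in the second, and Flt3, Hoxa9 and Kit in the third; Gata2 is not drawn for primary granule cells, which held 0 UMIs of it.

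Genes of the related lists moved both ways in the same endothelial cells, in the comparison that called 20.1% of genes as higher and 24.8% as lower. Of 12 tested genes of a HOX and MEIS list 6 were higher and 3 lower, with a median log2 difference of 0.90 against -0.15 over all genes: Meis2 stood 8.67 higher and Hoxa5 6.95 higher on the log2 scale, and Eya1 (-3.06) and Meis3 (-2.98) were lower. Of 22 stem cell transcription factors 7 were higher and 9 lower (median 0.12). Tal1 stood 6.13 and Erg 7.41 higher, both factors of blood and endothelial development, and the myeloid factors Spi1 (-3.36) and Cebpb (-3.21) were lower. Among 16 ligands and partner receptors 4 were higher and 9 lower (median -1.75), and Kitl, the ligand of Kit, stood 7.82 higher, while Csf3r, the receptor of a granulocyte growth factor (-3.92), was lower. The lower genes named were taken by lowest p in each list after the values were seen.

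Flt3 (ENSMUSG00000042817, chr5:147330741-147400489, minus strand) was highest in dendritic cells. Mature dendritic cells had 510 and 322 CPM in AML libraries 2 and 3 and 594 and 584 CPM in Ctrl libraries 2 and 3. cDC1 averaged 334 ± 53.3 CPM (n = 6) and pDC 253 ± 53.5 CPM (n = 5), with overlapping ranges. Conventional dendritic cells type 2 (cDC2) had 123 CPM in AML library 3 and 209 CPM in Ctrl library 3, the only 2 libraries with enough of them.

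Classical monocytes averaged 53.6 ± 23.9 CPM of Flt3 (n = 6), above B cells with 13.4 ± 2.30 CPM except in AML library 2, where they had 8.40 CPM. After thinning, 41.1% of mature dendritic cells, 28.8% of cDC1 and 28.3% of pDC carried an Flt3 UMI, against 0.0836% of alveolar macrophages, its background class (63.8%, 69.8%, 64.1% and 0.419% before thinning). Classical monocytes, 9.24% of all cells, held 20.9% of all Flt3 UMIs, the largest share of any class.

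Hoxa9 (ENSMUSG00000038227, chr6:52223100-52231089, minus strand) was almost absent: 63 UMIs in 38 of 70289 cells, of which 30 lay in the pDC-like cluster and 4 in an NK-like cluster. The libraries held 9, 33 and 8 Hoxa9 UMIs in AML and 1, 1 and 11 in Ctrl. In pDC the level was 10.7, 29.7 and 7.12 CPM in the AML libraries and 2.43 and 13.3 CPM in Ctrl libraries 1 and 3, and the groups overlapped. No B cell of 6218 carried a UMI, which allows a share of up to 0.0483%.

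A pair of cells in AML library 2 held 11 and 10 Hoxa9 UMIs, while every other cell held at most 3. These 2 cells had 16900 and 16622 UMIs in all, 12 and 21 of them Meis1, 7 and 2 Cd34, 3 and 5 Flt3, 3 and 0 Kit, 17 and 7 Runx1, and none was Myb, Myc or Gata2. Both lay in the cluster named cDC2-like, in which 3 of the 6 cDC2 markers were raised, but all 6 were at 0 in both cells. The cell gated as pDC held 1 Siglech, 1 Cox6a2, 4 Ccr9 and 2 Smim5 UMIs and none of the 6 immature myeloid markers. Some markers of other classes had more UMIs in it, with 16 of Il1r2 (neutrophil), 8 of Rora (ILC2) and 6 of Trbc2 (T cell). The other cell was ungated and held 1 Smim5 UMI and 2 UMIs of the primary granule gene Prtn3, with the other 5 immature myeloid markers at 0. Its UMIs of other markers included 8 of Il1r2, 5 of Wdfy4 (cDC1) and 3 of Pdgfrb (stromal). Neither of the 2 cells was among the predicted doublets. Without the gated one the pDC level of AML library 2 was 10.8 CPM, within the range of Ctrl. They were picked out after the counts were seen, and 2 cells of 1 library carry no test.

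**Figure D3:**
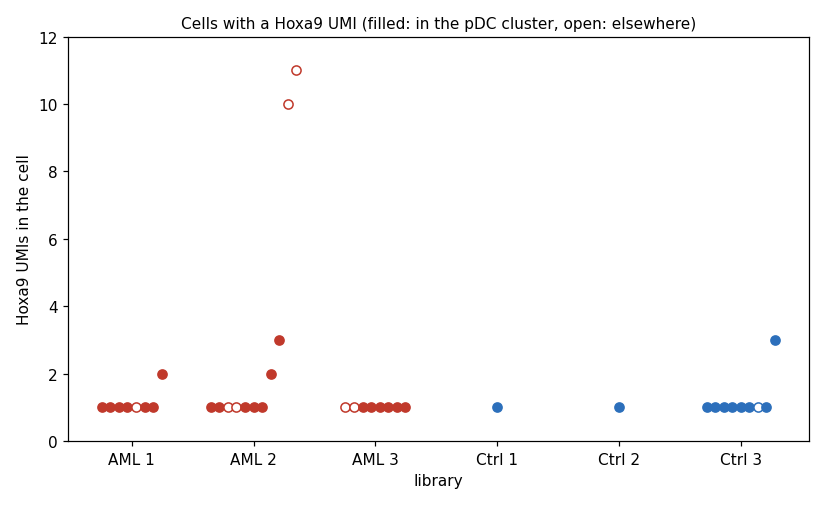
Hoxa9 UMIs (y axis) in each of the 38 cells with at least 1, by library (x axis), filled for cells of the pDC-like cluster and open for others. Cells with 10 and 11 UMIs appear only in AML library 2, and every other cell has 1 to 3.

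Dendritic cells as a whole (1704 cells, 6 libraries) differed from the remaining cells for 6 of 9 regulators, against 37.8% of 16953 genes called, 15.7% as higher and 22.1% as lower. Flt3 stood at 231 to 365 CPM in dendritic cells (median 314) and at 5.26 to 23.3 CPM in the remaining cells (median 10.1), without overlap. Hoxa9 was higher by 5.62 ± 0.513 (adjusted p = 1.36e-05), Flt3 by 4.87 ± 0.308 (adjusted p = 1.32e-06) and Kit by 3.05 ± 0.270 (adjusted p = 1.12e-05) on the log2 scale, each in 6 of 6 libraries (edgeR, library as a block). All 38 dendritic Hoxa9 UMIs lay in pDC, 11 of them in 1 cell of AML library 2. Gata2 (-4.66, from 2 dendritic UMIs), Myc (-1.0005) and Runx1 (-0.43) were lower in 6 of 6 libraries. The Runx1 call was lost without AML replicate 3 (-0.41), Ctrl replicate 1 (-0.28) or Ctrl replicate 3 (-0.42), and its sign turned when classes came from clusters (0.014). Myb passed the test only without Ctrl replicate 3 (0.99). Irf8, a factor of dendritic cell development, was 3.13 higher and Hoxa7 was 4.18 higher in the same comparison.

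Myb (ENSMUSG00000019982, chr10:21124935-21160984, minus strand) was highest in natural killer (NK) cells, with 128, 148 and 91.5 CPM in AML and 70.5, 60.7 and 70.2 CPM in Ctrl. T cells averaged 40.8 ± 9.16 CPM (n = 6) and pDC 40.0 ± 11.1 CPM (n = 5), and B cells 15.5 ± 7.28 CPM (n = 6). NK and T cells together carried most of it, with 36.5% and 29.97% of all Myb UMIs. Thinned shares were 7.44% of NK cells and 3.31% of T cells, against 0.0449% of alveolar macrophages (23.0%, 10.3% and 0.186% before thinning).

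Myc (ENSMUSG00000022346, chr15:61985391-61990374, plus strand) was highest in B cells, with 36.8, 24.6 and 51.7 CPM in AML and 53.5, 74.4 and 61.8 CPM in Ctrl. NK cells averaged 32.5 ± 8.28 CPM (n = 6) and T cells 18.7 ± 4.03 CPM (n = 6), and B and NK ranges overlapped. Alveolar macrophages averaged 17.9 ± 6.18 CPM (n = 6) and held 33.04% of all Myc UMIs, against 31.6% in B cells.

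Lymphoid cells (14041 cells of the B, plasma, T, NK and ILC2 gates) differed from the remaining cells for 6 of 8 regulators, in a comparison in which 70.4% of 16532 genes were called (32.5% higher, 38% lower), so a call here says little. Myb stood at 24.3 to 51.9 CPM in lymphoid cells (median 46.0) and at 0.944 to 7.17 CPM in the remaining cells (median 2.42), and Myc at 20.6 to 46.8 CPM (median 35.0) and 1.59 to 13.6 CPM (median 9.52). Myb was higher by 3.86 ± 0.288 (adjusted p = 0.000134) and Myc by 2.07 ± 0.298 (adjusted p = 0.00065) on the log2 scale, both in 6 of 6 libraries. Cd34 (-4.57), Gata2 (-4.17), Meis1 (-2.54) and Flt3 (-1.91) were lower in 6 of 6 libraries. Kit (-0.65, adjusted p = 0.201) and Runx1 (-0.18, adjusted p = 0.208) did not pass the test (edgeR, library as a block). Of 15 tested Myc target genes 7 were higher and 1 lower in lymphoid cells, and of 12 cycling genes 7 were higher and 0 lower.

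Runx1 (ENSMUSG00000022952, chr16:92601466-92826149, minus strand) was detected in every class with enough cells. Alveolar macrophages had 1845, 1562 and 1946 CPM in AML and 1640, 1703 and 2019 CPM in Ctrl, and NK cells averaged 1684 ± 261 CPM (n = 6), so the 2 highest classes overlapped. B cells averaged 1025 ± 128 CPM and T cells 887 ± 124 CPM (n = 6 each). After thinning, 75.2% of alveolar macrophages and 75.3% of NK cells carried a Runx1 UMI, against 12.5% of endothelial cells, the class in which its level was 40.5 to 463 CPM.

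Immature myeloid cells, defined by the primary granule genes Mpo, Elane, Prtn3, Ctsg, Ms4a3 and Fcnb, numbered only 4 under the exclusive gate, 1 in AML library 2 and 3 in AML library 3. Cells with at least 2 of these 6 genes, whatever other markers they carried, were therefore counted as primary granule cells, a choice made after the 4 cells were seen. They numbered 37, 135 and 49 in the AML libraries and 4, 2 and 2 in the Ctrl libraries, 0.680% ± 0.482 and 0.0584% ± 0.0508 of cells (SD, n = 3 each; exact permutation test, two-sided p = 0.1, the smallest that 3 against 3 allows, 0.213 adjusted over 17 classes).

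UMIs of Cd34, Kit, Hoxa9 and Gata2 were few in the primary granule cells. Cd34 had 4.42, 5.85 and 14.8 CPM in those of the AML libraries, from 4, 10 and 2 UMIs, against 1.01 to 3.87 CPM in the remaining cells. That difference of 2.03 ± 0.662 on the log2 scale passed the test (edgeR, AML libraries with the library as a block, adjusted p = 0.0158), as did Runx1 at -0.39 ± 0.137 (adjusted p = 0.0268), in a comparison that called 24.1% of 15328 genes, 9.66% as higher and 14.5% as lower. The Cd34 call was lost without any 1 of the 3 libraries, at 1.98 to 2.08, and the Runx1 call without AML replicate 1 (-0.44) or AML replicate 3 (-0.18). Primary granule cells held 9 Kit UMIs, 2 Hoxa9 UMIs and no Gata2 UMI over the 3 AML libraries.

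The remaining regulators did not pass the test in these cells. Meis1 had 14.4, 23.4 and 7.38 CPM, against 15.2 to 30.6 CPM in the remaining cells, a log2 difference of -0.05 (adjusted p = 0.943, edgeR). Myb had 17.7, 6.43 and 0 CPM (-0.26, adjusted p = 0.752) and Flt3 25.4, 5.26 and 36.9 CPM (-0.11, adjusted p = 0.876). All 12 genes of a cycling list were higher, Mki67 by 2.45 and Top2a by 2.37 on the log2 scale, and Cebpe, a granulocyte factor, was higher by 4.15.

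Cells carrying several of these genes at once were mostly endothelial. Of 490 cells with UMIs of at least 3 among Kit, Cd34, Flt3, Meis1, Hoxa9, Myb and Gata2, 351 were gated as endothelial, 8, 16 and 44 in AML and 67, 136 and 80 in Ctrl. The other gated classes with more than 10 such cells were cDC1 with 31 and pDC with 30. After thinning to 1000 UMIs, endothelial cells were counted for Meis1, Kit, Cd34 and Gata2 only. At least 2 of these were found in 36.4%, 7.55% and 13.3% of endothelial cells in AML (11, 53 and 339 cells). In Ctrl the shares were 33.3%, 19.6% and 22.8%. Unthinned counts move with the depth of a library, whose part was not tested.

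Over all cells of a library, Myc was the only regulator that passed the test between AML and Ctrl. It had 8.33, 5.54 and 9.60 CPM in AML and 17.9, 20.7 and 20.9 CPM in Ctrl, and the groups did not overlap. In such sums over all cells, fewer cells of a type and less RNA per cell cannot be told apart. The log2 difference was -1.21 ± 0.211 (edgeR quasi-likelihood test, adjusted p = 0.0242). This is 1 of 8 regulators tested, in a comparison that called 9.25% of 16727 genes in either direction, 5.89% as higher and 3.36% as lower, so the count of calls is near the background. The call held without AML replicate 2 or 3 and was lost without AML replicate 1 (-1.28, adjusted p = 0.0865), Ctrl replicate 1 (-1.26, adjusted p = 0.0797), Ctrl replicate 2 (-1.18, adjusted p = 0.112) or Ctrl replicate 3 (-1.19, adjusted p = 0.0553).

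The cell mixture moved with Myc. Alveolar macrophages and B cells, the 2 classes that held most Myc UMIs, made up 5.37% ± 2.10 and 7.84% ± 3.96 of cells in AML and 20.5% ± 7.74 and 16.9% ± 2.18 in Ctrl (exact permutation p = 0.1 for both). Within classes Myc differed by -0.77 ± 0.280 in B cells (adjusted p = 0.525), -0.49 ± 0.342 in alveolar macrophages (adjusted p = 0.647), -0.30 ± 0.226 in T cells (adjusted p = 0.732) and 0.03 ± 0.270 in NK cells (adjusted p = 0.973), on the log2 scale by edgeR. None passed the test, and the part of the mixture in the difference over all cells was not tested.

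**Figure D4:**
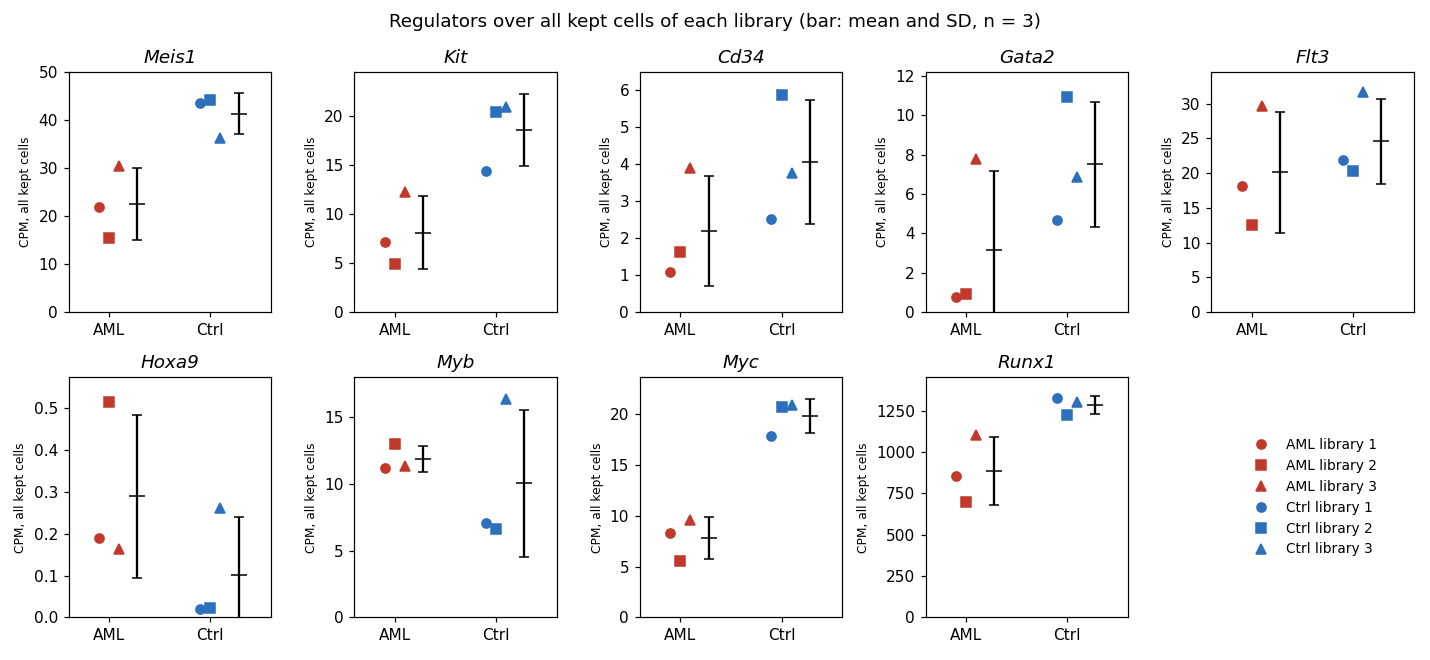
CPM over all kept cells (y axis, from 0) of each regulator in the 3 AML and 3 Ctrl libraries, with the mean and SD (n = 3) as a bar beside the points. Myc, Kit, Meis1 and Runx1 lie lower in every AML library than in every Ctrl library, and the groups overlap for the other 5. Of these genes only Myc passed the test. How many of all genes lie apart in this way was not counted, so the separation says nothing particular to these regulators.

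Kit had 7.11, 4.95 and 12.2 CPM in AML and 14.4, 20.4 and 20.9 CPM in Ctrl, without overlap, but its log2 difference of -1.06 ± 0.329 did not pass (edgeR adjusted p = 0.082). Meis1 had 21.8, 15.4 and 30.5 CPM in AML and 43.5, 44.2 and 36.4 CPM in Ctrl, a difference of -0.74 ± 0.243 (adjusted p = 0.093). Gata2 had 0.782, 0.903 and 7.76 CPM in AML and 4.70, 10.9 and 6.88 CPM in Ctrl (-1.12 ± 0.858, adjusted p = 0.419). For all 3 genes AML library 3, the shallowest, was the AML library nearest to Ctrl. Without it Gata2 (-2.99), Kit (-1.47), Meis1 (-1.002) and Runx1 (-0.58) passed the test. Leaving it out also raised the calls over all genes well above 1547, as given in the closing section on processing.

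The endothelial share was 0.711% ± 0.568 of cells in AML and 3.81% ± 1.499 in Ctrl (SD, n = 3 each; exact permutation p = 0.1, 0.213 adjusted over 17 classes). Cells endothelial by gate or by cluster were then left out, a choice made after seeing the data. That cluster held 2092 cells, predicted doublets included, against 1235 cells in the gate. Without these cells the log2 difference was -0.48 for Kit (adjusted p = 0.3), -0.29 for Meis1 (adjusted p = 0.494) and -0.23 for Gata2 (adjusted p = 0.911), by edgeR. For Cd34 it was -0.75 ± 0.513 with all cells (adjusted p = 0.367) and 0.66 without endothelial cells (adjusted p = 0.208), a turn of sign. Myc stayed at -1.26 and past the threshold (adjusted p = 0.0178). The part of the endothelial share in these differences was not tested.

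Runx1 had 854, 696 and 1104 CPM in AML and 1327, 1226 and 1305 CPM in Ctrl (-0.41 ± 0.180, adjusted p = 0.178). Flt3 had 18.1, 12.5 and 29.7 CPM in AML and 21.9, 20.3 and 31.6 CPM in Ctrl (-0.16 ± 0.317, adjusted p = 0.778), and the groups overlapped. Myb had 11.2, 12.97 and 11.3 CPM in AML and 7.07, 6.63 and 16.4 CPM in Ctrl (0.38 ± 0.334, adjusted p = 0.479 by edgeR), and passed the test only without Ctrl replicate 3, at 0.90 (adjusted p = 0.0495). Hoxa9 was below the filter on low counts and was not tested.

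Among partner genes, 5 of 22 stem cell transcription factors were higher and 0 lower over all cells (median 0.10), against 5.89% of all genes called higher, 3.36% called lower and a median of -0.00, with Spi1, the myeloid factor PU.1, at 1.17 and Gfi1b at 3.27 on the log2 scale. Of 15 ligands and partner receptors 2 were higher and 0 lower, Csf1r by 1.42 and Cd48 by 0.69. Of 15 Myc target genes 1 was higher and 2 lower: Cad and Odc1, of nucleotide and polyamine synthesis, at -0.90 and -0.53 and Ldha, of lactate formation, at 0.50. Csf1r and Spi1 are monocyte genes, and nonclassical monocytes were 37.1% ± 18.4 of cells in AML and 11.9% ± 1.70 in Ctrl, whose part in these differences was not tested.

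Within the 12 gated classes that could be tested, 46 tests of regulators gave 0 calls by edgeR. Of the 46, 11 reached p under 0.05 before adjustment, and 4 were called by DESeq2. For neither count is the share of all genes over these classes given here. Over whole libraries DESeq2 called more genes than edgeR. The classes themselves gave few calls: 0 of 9544 genes in endothelial cells, 2 of 9564 (0.0209%) in NK cells, 1.76% in classical monocytes (1.07% higher, 0.688% lower), 2.53% in nonclassical monocytes (1.41% higher, 1.13% lower) and 0 in the 8 others. The values below are therefore descriptions of differences that did not pass the test.

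In endothelial cells Meis1 differed by -1.24 ± 0.221 (adjusted p = 0.0975) and Kit by -1.16 ± 0.242 (adjusted p = 0.117) on the log2 scale, with 1611 of 9544 genes at an unadjusted p under 0.05. The 2 AML libraries tested lay below all 3 Ctrl libraries for both genes, and DESeq2 called both (Kit adjusted p = 0.0134, Meis1 adjusted p = 0.000712). The 13 cells of AML library 1, too few for the test, had 498 CPM of Meis1 and 541 CPM of Kit, inside and above the range of Ctrl. Cd34 differed by 0.01 ± 0.233 (adjusted p = 0.995), Gata2 by -0.59 ± 0.250 (adjusted p = 0.296) and Runx1 by 1.45 ± 0.758 (adjusted p = 0.386, edgeR), the last passing the test without Ctrl replicate 3 at 2.72.

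The gate itself also read differently in the libraries of the 2 groups, though edgeR called 0 of 9544 genes in this class. The 6 endothelial markers summed to 4886 and 4438 CPM in AML libraries 2 and 3 and to 7301, 7548 and 6175 CPM in the Ctrl libraries, with 7675 CPM in the 13 cells of AML library 1. Ptprc ran the other way, as given above, and Runx1 had 189 and 463 CPM in AML libraries 2 and 3 and 40.5, 58.3 and 252 CPM in Ctrl. The median depth of these cells was 2689 and 1442 UMIs in AML libraries 2 and 3 and 8103, 4918.5 and 2338.5 UMIs in Ctrl. Of the marker sets of 22 other classes, 16 overlapped between AML libraries 2 and 3 and the Ctrl libraries, and 6 did not. How many of all genes lie apart in this way was not counted, so these counts say nothing particular to the marker sets. The pDC and basophil sums were low, at 13.5 CPM each in AML library 2 and at most 6.07 and 12.1 CPM in Ctrl. B cell markers, all 6 of them detected, summed to 121 and 134 CPM in AML libraries 2 and 3 and 23.0 to 84.1 CPM in Ctrl, and pDC and basophil markers were also higher, while ILC2, cDC1 and interstitial macrophage markers were lower. The 13 cells of AML library 1 held 0 CPM of B cell, pDC and basophil markers, 1115 CPM of cDC1 markers, above all Ctrl libraries, 390 CPM of ILC2 markers, within the range of Ctrl, and 54.1 CPM of interstitial macrophage markers, below it. Immature myeloid markers summed to 7.26 CPM in AML library 3, 0.867 CPM in Ctrl library 3 and 0 in the other 4 libraries, and Mpo, Elane and Ctsg were at 0 in all 6. The part of leukocyte RNA and of depth in these endothelial differences was not tested.

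**Figure D5:**
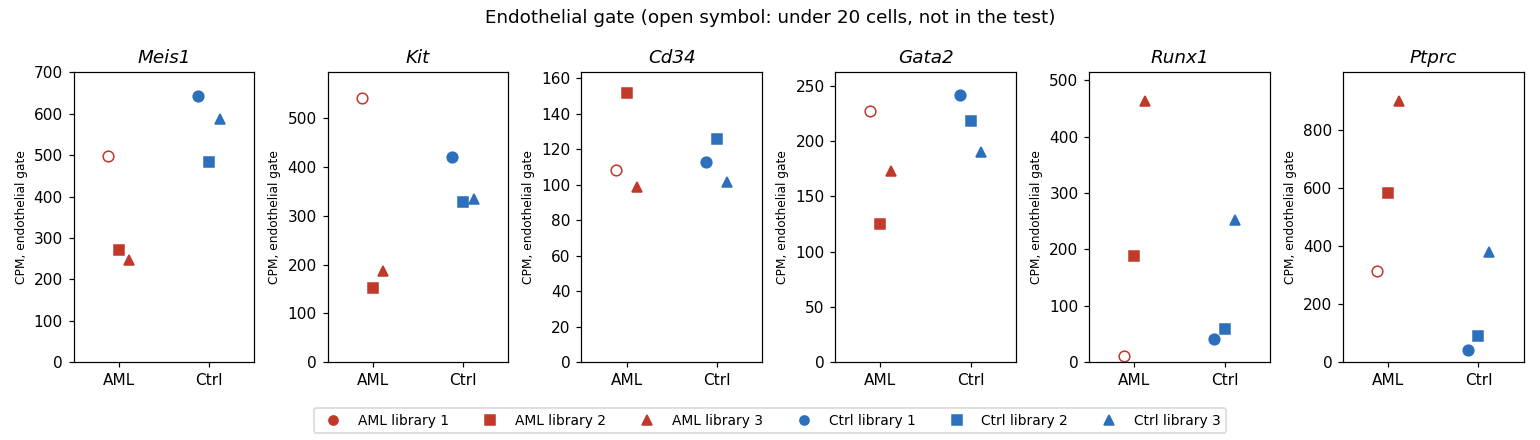
CPM (y axis, from 0) of Meis1, Kit, Cd34, Gata2, Runx1 and the leukocyte gene Ptprc in endothelial cells of each AML and Ctrl library, with an open symbol for AML library 1, whose 13 cells were not in the test. AML libraries 2 and 3 lie below Ctrl for Meis1, Kit and Gata2, while Ptprc is higher there than in every Ctrl library.

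In NK cells Myb was higher in 3 of 3 AML libraries than in any Ctrl library, with a log2 difference of 0.95 ± 0.187 (edgeR adjusted p = 0.193). It passed the test without AML replicate 3 (1.10, adjusted p = 0.0047) and by DESeq2 (adjusted p = 0.00494). Kit had 17.4, 35.7 and 21.3 CPM in NK cells of AML and 15.5, 12.01 and 14.95 CPM in those of Ctrl (0.90 ± 0.307, adjusted p = 0.261). Meis1 had 9.20, 9.42 and 13.2 CPM in NK cells of AML and 19.8, 15.8 and 37.6 CPM in those of Ctrl (-1.17 ± 0.358, adjusted p = 0.24).

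In cDC1 Kit had 206, 160 and 108 CPM in AML and 283, 210 and 215 CPM in Ctrl (-0.52 ± 0.256, adjusted p = 0.673), without overlap. In ILC2 it had 140 and 15.2 CPM in AML libraries 2 and 3 and 316 and 379 CPM in Ctrl libraries 2 and 3 (-1.98 ± 0.651, adjusted p = 0.595), and without AML replicate 2 the difference was -4.54 and passed the test on 1 UMI. Flt3 differed by 0.21 ± 0.214 in cDC1 (adjusted p = 0.829), -0.53 ± 0.323 in mature dendritic cells (adjusted p = 0.954) and -0.38 ± 0.235 in pDC (adjusted p = 0.655). In classical monocytes Flt3 had 52.0, 8.40 and 57.58 CPM in AML and 69.4, 57.66 and 76.5 CPM in Ctrl, without overlap but with AML library 3 and Ctrl library 2 almost equal (-0.83 ± 0.550, edgeR adjusted p = 0.417). Runx1 had 674, 734 and 903 CPM there in AML and 1026, 902 and 1053 CPM in Ctrl (-0.38 ± 0.143, adjusted p = 0.179), and passed the test without AML replicate 3 at -0.53. Runx1 had 636, 555 and 923 CPM in nonclassical monocytes of AML and 1109, 1018 and 1090 CPM in those of Ctrl (-0.58 ± 0.186, edgeR adjusted p = 0.141), and passed the test without AML replicate 3 at -0.81 and by DESeq2 (adjusted p = 0.0309).

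The genes whose mean levels over 15 gated classes were most like those of each regulator were ranked by Pearson's r of log2(CPM + 1), as a description with no test. Gata2 was most like Aqp1 (r = 0.998), Rhoj and Fgd5, and Cd34 most like Hspg2 (r = 0.954), all of them genes of vascular endothelium. Hoxa9 was most like Ptgds (r = 0.996), Meis1 like Traf7 (r = 0.907), Kit like Itga3 (r = 0.914) and Flt3 like Uvrag (r = 0.878). Myc was most like Cdt1 (r = 0.956), a replication licensing factor, Myb like Gpr174 (r = 0.858) and Runx1 like Adcy7 (r = 0.85).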

How the data were processed

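Single cells of 3 AML and 3 Ctrl lung libraries were measured. The deposited matrices hold UMI counts per gene and barcode, made by the authors with Cell Ranger 7.0.0 on mm10, per the submitters' processing notes. No source used here states whether intronic reads were counted. Barcodes with at least 500 UMIs, at least 200 genes and under 10% mitochondrial UMIs were kept (71634), and 1345 doublets predicted by Scrublet (scanpy 1.11.5) were left out. In AML libraries 2 and 3 and Ctrl library 3 its own threshold failed, and the median of the others was used. A cell entered the class with the most of 6 markers carrying a UMI, at least 2 and without a tie. Clusters (leidenalg 0.10.2, resolution 1) were named from the same markers as an alternative.

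Counts were summed per library, and per class with at least 20 cells, and the sums went into edgeR 4.0.16, run in R 4.3.3 (quasi-likelihood, TMM, filterByExpr, Benjamini-Hochberg 0.05). Printed CPM are not TMM-scaled. An SE is the log2 difference over the square root of F. Shares of cells were compared with an exact two-sided permutation test over 20 arrangements. Limits for a share at 0 stand for 3 counts and cover counting error only. The test script was run on simulated counts beforehand.

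Named list genes were the 15 lowest p-values per comparison among those called; likeness took the 3 highest correlations. Members and lists were chosen with earlier results of these data known. Alternatives were DESeq2 1.42.0, edgeR with its size factors, each library left out, the replicate block, all genes with a count, doublets kept, 3 markers, clusters, 1000 UMIs and thinning. Cells on which gate and cluster agree, leaving out cells endothelial by gate or cluster, and the primary granule gate were added after seeing the data.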

Additional observations from a re-analysis of the deposited data

Results flagged for a closer look

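Before thinning, Kit lay on opposite sides of Ctrl in different classes. The log2 ratio of mean CPM, AML over Ctrl, was 0.811 in NK cells, where every AML library was above every Ctrl library, and -0.58 in cDC1 and -1.1 in endothelial cells, where every AML library with at least 20 cells was below every Ctrl library. The difference between the classes was not tested. The 13 endothelial cells of AML library 1 are not included and had 541 CPM of Kit, above all Ctrl libraries.

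Meis1 had a log2 ratio of 0.25 in pDC, where the AML libraries were above Ctrl libraries 1 and 3, and of -1.2 in NK cells and -1.15 in endothelial cells, where they were below. Ctrl library 2 held 15 pDC, under the minimum of 20, with 87.9 CPM of Meis1, above every AML library. The difference between the classes was not tested either.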

How the results depend on the processing

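The number of regulators called over whole libraries was 1, and 3 by DESeq2 (Myc, Kit and Meis1), 0 with the replicate block and 0 to 5 with 1 library left out. Calls within classes numbered 0, and 4 by DESeq2, 5 without the low count filter, 2 with the replicate block and 0 to 4 with 1 library left out. Shares of all genes called within classes under these settings are not given here. Calls in primary granule cells numbered 2, and 0 to 1 with 1 library left out. With the block Myc stood at -1.24 (edgeR adjusted p = 0.073). Deviations of same-numbered libraries correlated at 0.294, -0.198 and -0.098, and those of the other pairs at -0.310 to 0.359. So few values cannot decide whether the numbers pair the samples. Genes called over whole libraries numbered 1547, against 3257 by DESeq2, 84 with the block, and 201, 463 and 3175 without AML replicate 1, 2 or 3 and 0, 0 and 504 without Ctrl replicate 1, 2 or 3.

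Some log2 differences that had not passed the test changed sign. Cd34 in endothelial cells stood at -0.26 with clusters, -0.0025 with 3 markers, -0.0294 without the filter and -0.0225 at 1000 UMIs, and Cd34 over whole libraries at 0.66 without endothelial cells. Myb in T cells stood at -0.11 and Myc in NK cells at -0.12 with clusters, and Myc in NK cells at -0.0044 without the filter. Runx1 stood at 0.014 in dendritic cells with clusters, a called difference before, and in alveolar macrophages at -0.10 with clusters, -0.021 with 3 markers and -0.0423 without the filter. With 1 library left out, the range was -0.24 to 0.25 for Cd34 in endothelial cells, -0.69 to 0.45 for Flt3, -0.84 to 0.23 for Meis1 and -1.15 to 0.31 for Myb in primary granule cells, -0.53 to 0.10 for Flt3 over whole libraries, -0.26 to 0.0417 for Meis1 and -0.0707 to 0.12 for Runx1 in alveolar macrophages, -0.0869 to 0.29 for Myb in T cells, -0.54 to 0.41 for Myb in pDC, and -0.22 to 0.26 for Myc and -0.22 to 0.0465 for Runx1 in NK cells. The causes were not tested.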
